A study of Mus musculus with 12 samples.

Results

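The genes described here are 9 transcription factors that build or tune the macrophage programme: Spi1, Cebpa, Cebpb, Cebpd, Maf, Runx1, Bach1, Klf2 and Klf4. They were chosen by name, as the rows of the count table that carry these symbols, out of 24421 symbols in all. All 9 were found and all 9 passed the filter on low counts, which left 11468 genes to test. The data were bulk RNA-seq counts from bone marrow-derived macrophages (BMDMs), which are marrow cells of C57BL/6 mice grown for 5 days in M-CSF (100 ng/mL, medium changed on day 3) until they become macrophages. Each of 3 mice (A, B and C) gave 1 culture to each of 4 groups, so that there were 12 libraries. The cells received either I-BET151 (5.0 µM), referred to as iBET, or DMSO as the solvent control (5% in the labels), and either ovalbumin alone (Ova) or ovalbumin bound by IgG as an insoluble immune complex (IC), for 4 hours. The groups are therefore DMSO with Ova, iBET with Ova, DMSO with IC, and iBET with IC. The labels give no solvent content for the iBET groups, and the study's text gives 5% DMSO only for the drug solution given to mice. No gene was deleted in any group, and no untreated cells without solvent were analysed here. The labels say drug and stimulus were given together, but the study's text adds the drug first, so their order is uncertain.

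Macrophage identity rests on a small set of DNA-binding proteins. PU.1, the product of Spi1, opens myeloid enhancers together with the C/EBP proteins, whose genes are Cebpa, Cebpb and Cebpd, and Runx1 acts with them from the blood stem cell onwards. c-Maf, Bach1 and the Krüppel-like factors Klf2 and Klf4 then tune the mature cell, towards clearance and restraint (c-Maf), haem and oxidant handling (Bach1), or quiescence and polarisation (Klf2 and Klf4). BET proteins are readers of acetylated histones that help to recruit the transcription machinery, and iBET blocks that reading. IgG immune complexes cross-link Fcγ receptors, the receptors for IgG on macrophages, most of which activate the cell and some of which restrain it.

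The libraries held 7549849 to 17387639 counts. One of them, the DMSO with Ova library of mouse A, stood apart: 77.4% of its counts fell on the ribosomal RNA gene Rn45s, against 1.41% to 7.83% in the other 11. It had 1768133 counts left for all other genes, and its counts for the 9 factors lay between 27 and 387, so values from it are the least precise here. The labelled cell type was checked against markers. All 9 macrophage markers were detected, with a summed level of 8332 to 10932 CPM (counts scaled to a common library size) over the 12 libraries. Those for neutrophils summed to 9.76 to 56.5 CPM, with ranges that overlapped between groups, and the summed level of lymphocyte markers did not pass 0.23 CPM. With IC, some marker sums separated by drug. Macrophage markers stood at 8332 to 9475 CPM in DMSO and 9889 to 10868 CPM in iBET. The other sums that separated lay near the floor, with few or no markers past the filter on low counts. Dendritic cell markers (1 of 6 past the filter) stood at 0.667 to 1.18 and 1.2 to 1.55 CPM. Stromal markers (1 of 5) stood at 1.21 to 1.43 and 0.479 to 0.694 CPM. Erythroid and megakaryocyte markers (0 of 7) stood at 0 to 0.22 and 0.24 to 0.872 CPM. Mast cell and basophil markers (0 of 5) stood at 0.11 to 0.191 and 0 to 0.107 CPM. The part of these sums in the iBET results with IC was not tested. Levels below are CPM after TMM scaling. In bulk samples, fewer cells that express a gene and less RNA per cell cannot be told apart.

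The 9 genes lie on 5 chromosomes of the mouse genome (GRCm38/mm10, GENCODE vM21). Spi1 spans chr2:91082390-91115756 on the plus strand, and Cebpb is a single exon at chr2:167688915-167690418. Cebpa lies at chr7:35119293-35121928 and Cebpd, again a single exon, at chr16:15887286-15891031. Runx1 is the longest, at chr16:92601466-92826149 on the minus strand, on the same chromosome as Bach1 at chr16:87698945-87733346. Klf2 lies at chr8:72319033-72321656, Maf at chr8:115682942-115707794 and Klf4 at chr4:55527143-55532466, the latter pair on the minus strand. Exons of 5 members overlap an exon of a gene on the opposite strand: Cebpb shares 312 bases with Tmem189, Cebpd 562 with Spidr, Maf 440 with Gm15655, Runx1 106 with Gm26626 and Cebpa 51 with Gm45091. The use of strand in counting was not stated, so reads from these stretches are uncertain. Spidr was not called in either iBET contrast (log2 fold change 0.15 and 0.27), and Tmem189 rose by 0.48 and 0.45 (edgeR quasi-likelihood test, adjusted p = 0.0134 and 0.0173).

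RefSeq promoter windows were at hand for 6 of the 9 members. The part before the start site is printed for Runx1, which fell most with iBET among these 6, and for Klf2 and Cebpa, which rose most among them with Ova (GRCm38.p6, 5′ to 3′ on the gene's strand, ending at or before the first annotated exon base). Capitals mark matches, on either strand, to 6 motifs. The general promoter elements searched were the TATA box as TATAAA, the box of NF-Y as CCAAT, and the GC box bound by Sp and Krüppel-like proteins as GGGCGG. The motifs of the members themselves were GAGGAA for the core bound by PU.1, TTGCNNAA for the C/EBP proteins, and the core CACCC for the Krüppel-like factors. No matches share bases in these 3 stretches.
Runx1 chr16:92697330-92697579, minus strand: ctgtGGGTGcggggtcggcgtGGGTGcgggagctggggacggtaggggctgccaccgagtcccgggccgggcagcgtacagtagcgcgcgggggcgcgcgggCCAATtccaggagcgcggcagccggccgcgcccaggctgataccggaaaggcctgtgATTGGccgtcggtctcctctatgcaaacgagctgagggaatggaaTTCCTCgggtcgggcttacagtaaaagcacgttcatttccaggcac
Klf2 chr8:72318812-72319032, plus strand: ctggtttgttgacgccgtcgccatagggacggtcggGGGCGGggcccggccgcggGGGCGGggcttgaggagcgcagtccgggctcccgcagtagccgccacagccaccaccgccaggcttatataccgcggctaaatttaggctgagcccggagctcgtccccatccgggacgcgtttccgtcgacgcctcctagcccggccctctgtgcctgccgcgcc
Cebpa chr7:35119043-35119292, plus strand: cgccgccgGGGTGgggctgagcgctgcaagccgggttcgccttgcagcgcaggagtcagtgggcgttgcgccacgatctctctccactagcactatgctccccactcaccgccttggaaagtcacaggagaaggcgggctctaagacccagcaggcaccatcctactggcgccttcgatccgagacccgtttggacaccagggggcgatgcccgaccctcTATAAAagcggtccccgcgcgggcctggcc
The Cebpa window has a TATAAA that begins at position -30 from its start site, which 12.4% of 32851 RefSeq windows of the same 250 bases contain somewhere. The Klf2 stretch has 2 copies of GGGCGG, present in 32.7% of windows. In the Runx1 stretch, 2 copies of CCAAT (33.8% of windows) and 1 GAGGAA (23.3%) were found. These windows are rich in CpG, with 27 in Runx1, 22 in Cebpa and 29 in Klf2 against a median of 6 over all windows. A further Runx1 window, at the gene's far upstream start, has 2. TTGCNNAA was in none of the 6 members' windows and in 9.56% of all. A match is a description of letters and not a bound site.

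**Figure D1:**
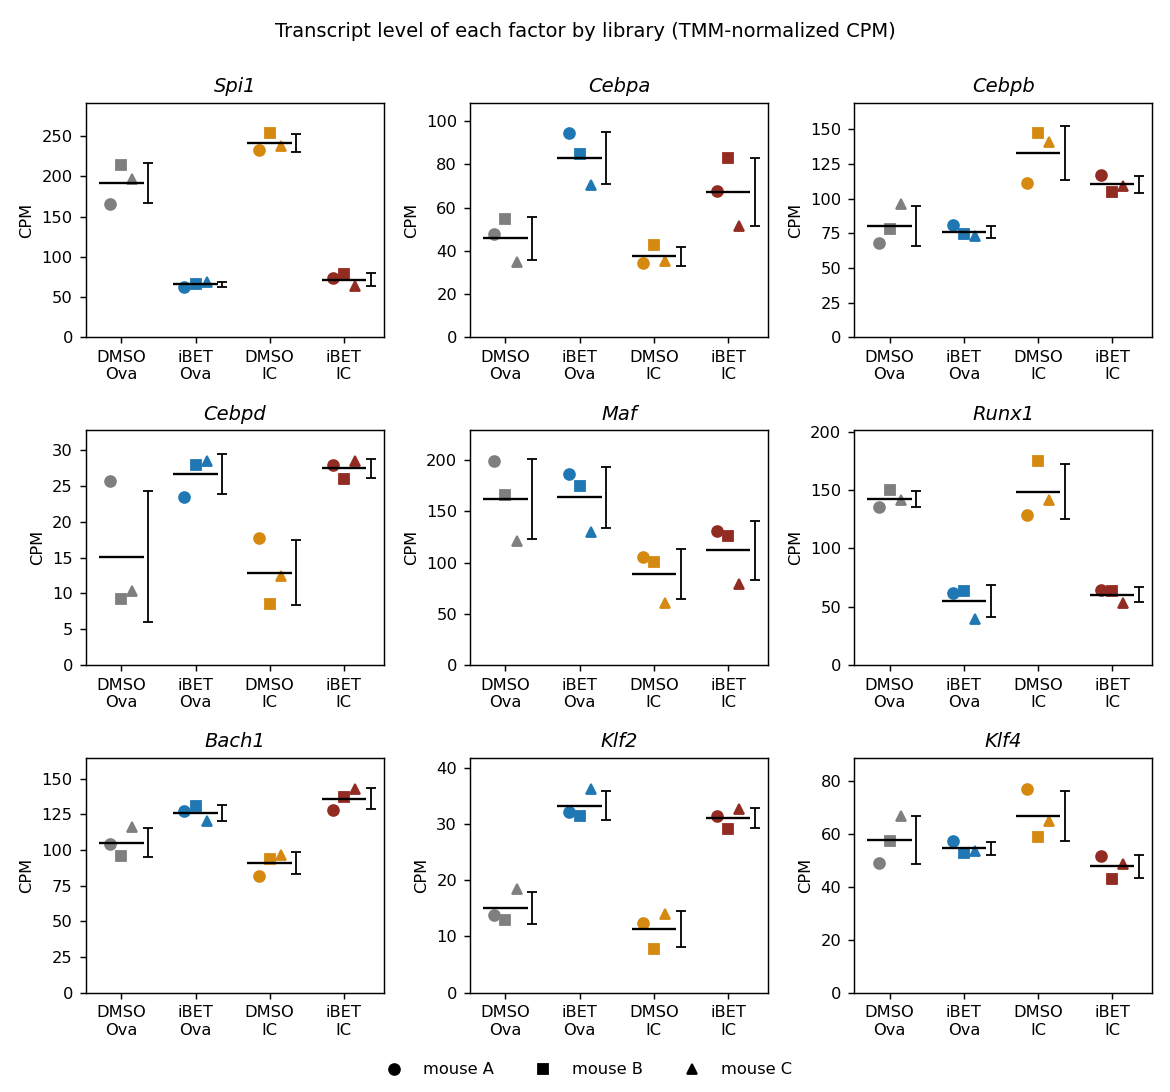
TMM-normalized CPM of the 9 factors (y axis, from 0) in the 12 libraries, by group (x axis). Symbols mark the mouse, the horizontal line is the group mean and the bar beside it the SD over 3 libraries. Spi1 and Runx1 are lower and Klf2 and Cebpa higher in every iBET library than in every DMSO library of the same stimulus. Cebpb is higher and Maf lower with IC than with Ova in every mouse.

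The first question was what BET inhibition does to these factors. With Ova, 5 of the 9 were called at an adjusted p under 0.05, 2 lower (Spi1 and Runx1) and 3 higher (Cebpa, Cebpd and Klf2). Of all genes tested, 31.3% were called, 14.2% lower and 17.1% higher. With IC, 7 of the 9 were called, 3 lower (Spi1, Runx1 and Klf4) and 4 higher (Cebpa, Cebpd, Bach1 and Klf2), against 34.8% of all genes, 15.8% lower and 19% higher. The 5 called with Ova were called with IC in the same direction. The groups did not overlap for 5 members with Ova and for 7 with IC, where 45.1% and 48.6% of all genes had no overlap. These counts of calls were the same, 5 and 7, without the DMSO with Ova library of mouse A. Leaving out mouse A altogether gave 4 and 7, leaving out mouse B gave 4 and 4, and leaving out mouse C gave 4 and 5. Without mouse B the calls fell over all genes too, from 3593 to 1310 with Ova and from 3987 to 1769 with IC. Without mouse A they were 3858 and 3852.

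Spi1, which encodes PU.1, fell strongly with iBET under both stimuli. It stood at 165, 214 and 196 CPM in mice A, B and C with DMSO and Ova, and at 62.7, 66.3 and 69.2 CPM with iBET and Ova. With IC, the DMSO libraries held 232, 253 and 238 CPM and the iBET libraries 73.2, 78.7 and 63.3 CPM. The highest iBET library of all, at 78.7 CPM, lay far below the lowest DMSO library, at 165 CPM. The log2 fold change was -1.54 (SE 0.12, adjusted p = 2.34e-06) with Ova and -1.75 (SE 0.12, adjusted p = 7.61e-07) with IC, which is 2.92-fold and 3.36-fold lower. Both were called whichever library or mouse was left out.

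Runx1, the partner of PU.1 in early haematopoiesis, fell to a like degree. Its levels with DMSO and Ova were 136, 150 and 142 CPM, against 61.5, 63.6 and 39.3 CPM with iBET and Ova. Immune complex gave 129, 175 and 142 CPM in DMSO and 64.5, 63.5 and 53.0 CPM in iBET. No iBET library reached the DMSO range, and mouse C was the lowest in both iBET groups. The change was -1.38 (SE 0.17, adjusted p = 9.58e-05) with Ova and -1.30 (SE 0.17, adjusted p = 0.000123) with IC, and all omissions of 1 library or 1 mouse left it called.

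The 3 C/EBP genes did not move together under iBET. Cebpa, the C/EBP gene needed for myeloid commitment, rose. It was measured at 47.8, 54.7 and 35.1 CPM with DMSO and Ova and at 94.3, 84.6 and 70.4 CPM with iBET and Ova. The corresponding values with IC were 34.3, 42.6 and 35.4 CPM, and 67.8, 82.9 and 51.5 CPM. Every iBET library lay above every DMSO library of its stimulus. The log2 fold change was 0.86 (SE 0.20, adjusted p = 0.00595) with Ova and 0.85 (SE 0.20, adjusted p = 0.00507) with IC, or 1.82-fold and 1.81-fold. All 12 omissions of a single library kept both calls. Without mouse A the adjusted p was 0.118 and 0.113, and without mouse B the call with IC was also lost (0.0526).

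Cebpd, a C/EBP gene induced by inflammatory signals, was the lowest of the 9 per length in DMSO and rose less securely. Its libraries read 25.7, 9.28 and 10.4 CPM with DMSO and Ova, and 23.5, 28.0 and 28.5 CPM with iBET and Ova. The high DMSO value belongs to the Rn45s-rich library of mouse A, where Cebpd had 50 counts, and it makes the groups overlap. With IC, DMSO gave 17.7, 8.58 and 12.5 CPM and iBET 27.9, 26.0 and 28.5 CPM, with no overlap. The change was 1.00 (SE 0.34, adjusted p = 0.043) with Ova and 1.08 (SE 0.32, adjusted p = 0.0217) with IC. By mouse, the difference with Ova was -0.12 in A, 1.57 in B and 1.43 in C. Without the mouse A library of DMSO with Ova it was 1.38 (SE 0.23, adjusted p = 0.000784). The call with Ova was lost without the filter on low counts (0.0616) and with the compared groups fitted alone (0.0765). It held in 3 of 12 omissions of a library, with an adjusted p of up to 0.174, and in the case of IC it held in 8 of 12. Leaving out mouse B gave 0.319 and 0.147, and leaving out mouse C gave 0.346 and 0.162.

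Cebpb, the C/EBP gene of activated macrophages, was not called for iBET under either stimulus. The 3 DMSO with Ova libraries held 67.8, 77.9 and 96.1 CPM and those with iBET and Ova 81.1, 74.7 and 72.9 CPM. Immune complex brought 111, 147 and 141 CPM in DMSO and 117, 105 and 109 CPM in iBET. The iBET values lay inside the DMSO range with Ova and overlapped it with IC. The log2 fold change was -0.09 with Ova (95% interval -0.39 to 0.20, adjusted p = 0.643). It was -0.27 with IC (-0.56 to 0.02, adjusted p = 0.136), where leaving out the DMSO with IC library of mouse A gave an adjusted p of 0.0278 leaving out mouse A gave 0.00807, and voom gave 0.0206.

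Among the Krüppel-like factors, Klf2 rose with iBET under both stimuli. Klf2, known for holding macrophages in a quiescent state, read 13.9, 13 and 18.4 CPM with DMSO and Ova and 32.1, 31.5 and 36.3 CPM with iBET and Ova. After IC, it read 12.4, 7.81 and 14.0 CPM in DMSO and 31.4, 29.2 and 32.6 CPM in iBET. The lowest iBET library was well above the highest DMSO library. The change was 1.13 (SE 0.20, adjusted p = 0.00102) with Ova and 1.44 (SE 0.19, adjusted p = 0.000139) with IC, or 2.18-fold and 2.71-fold, and was called in all omissions.

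Klf4, a factor of monocyte differentiation and of alternative polarisation, was called lower with iBET than with DMSO in the IC libraries. Its values with DMSO and Ova were 48.8, 57.4 and 66.6 CPM, and those with iBET and Ova 57.2, 52.8 and 53.5 CPM. In the IC libraries it stood at 77, 58.6 and 64.7 CPM with DMSO and at 51.6, 42.9 and 48.4 CPM with iBET. The groups overlapped with Ova and did not with IC. The change was -0.10 (SE 0.13, adjusted p = 0.621) with Ova and -0.49 (SE 0.13, adjusted p = 0.0122) with IC. The IC call was lost on leaving out mouse B (0.102), mouse C (0.0683), or just the iBET with IC library from mouse B (0.0583). The difference between these changes, which is the interaction of drug and stimulus, was -0.39 (SE 0.19, adjusted p = 1).

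Bach1, a repressor of haem oxygenase and other antioxidant genes, was called higher with iBET than with DMSO in the IC libraries. It measured 104, 95.5 and 116 CPM with DMSO and Ova and 127, 131 and 120 CPM with iBET and Ova. The IC libraries held 82.1, 93.7 and 96.7 CPM in DMSO and 128, 137 and 143 CPM in iBET. Neither pair of groups overlapped. With IC the change was 0.58 (SE 0.10, adjusted p = 0.000836), called in all omissions. The value with Ova was 0.27 (SE 0.10, adjusted p = 0.0658), which passed with the mouse as a block (adjusted p = 0.0439). The interaction was 0.32 (SE 0.14, adjusted p = 1).

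Maf, which encodes c-Maf, was not called for iBET in the fit without mouse. Its levels were 199, 166 and 121 CPM with DMSO and Ova and 186, 175 and 130 CPM with iBET and Ova. With IC they were 105, 101 and 61.0 CPM in DMSO and 131, 126 and 79.1 CPM in iBET. Mouse C had the lowest Maf in all 4 groups. The change was 0.03 (95% interval -0.55 to 0.60) with Ova, a value so near 0 that its sign depended on the scaling, and 0.33 (SE 0.26, adjusted p = 0.351) with IC. With the mouse as a block, the latter was called (0.34, adjusted p = 0.011), since iBET was higher by 0.32, 0.32 and 0.37 in the 3 mice.

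**Figure D2:**
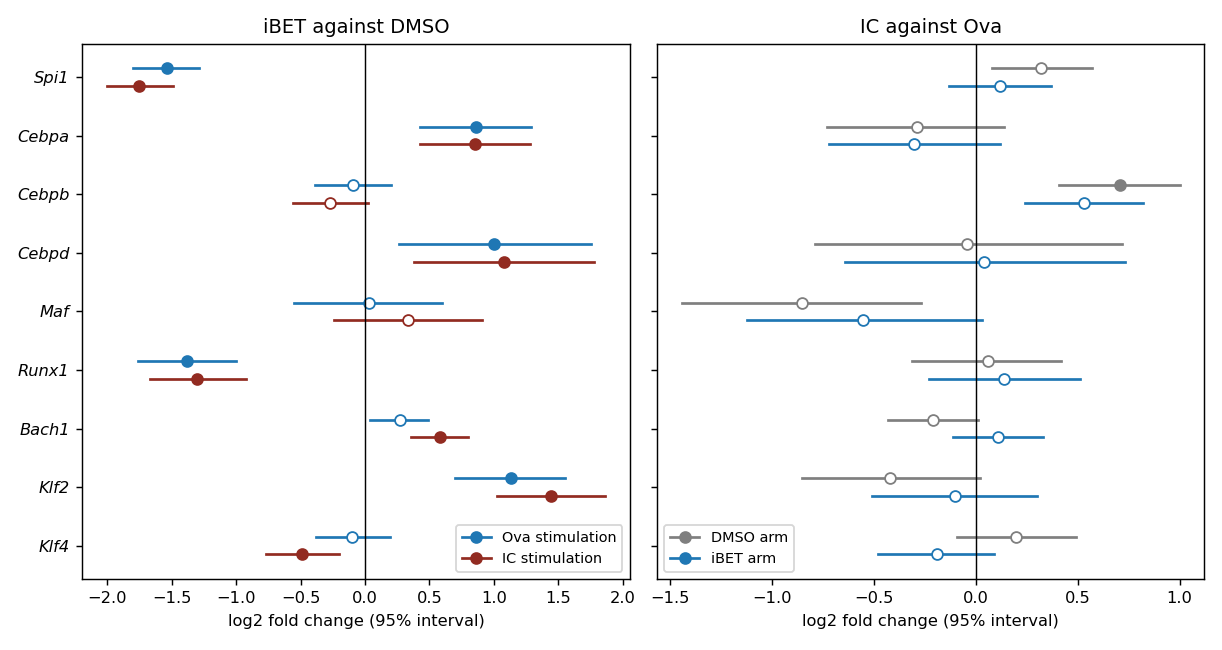
Log2 fold change of each factor (x axis) with its 95% interval from edgeR, for iBET against DMSO (left) with Ova or IC, and for IC against Ova (right) in DMSO or iBET. Filled circles passed an adjusted p under 0.05 and open circles did not. Spi1 and Runx1 sit between -1.75 and -1.30 and Klf2, Cebpd and Cebpa between 0.85 and 1.44 for iBET, while Cebpb in DMSO is the only filled circle for IC.

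The next question was how Fcγ receptor engagement acts on the same factors, with and without the inhibitor. In DMSO, Cebpb was the only 1 of the 9 factors called, and it rose, where 1.22% of all genes tested were called. In iBET, none was called in edgeR (0.349% of all genes). Only 1 member, Cebpb, had an unadjusted p under 0.05 there, among 860 genes, and DESeq2 without a block called none either. For 3 members in DMSO and 2 in iBET the groups did not overlap, against 15.3% and 18.9% of all genes. With the mouse as a block, 2 members were called in DMSO (2.75% of all genes) and 1 in iBET (0.741%), as Maf passed in both. The comparisons of IC with Ova share their libraries with those of iBET with DMSO above.

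Cebpb rose with IC in every mouse. From the values given above, the difference by mouse was 0.72, 0.91 and 0.55 on the log2 scale in DMSO, and 0.52, 0.50 and 0.57 in iBET. The IC libraries lay above the Ova libraries in both arms. In DMSO the log2 fold change was 0.71 (SE 0.14, adjusted p = 0.0279), or 1.63-fold. It kept its direction but not its call in 5 of 12 omissions of a library, with adjusted p of up to 0.147 (without the DMSO with Ova library of mouse B) and 0.0787 without the Rn45s-rich library. Without mouse B the adjusted p was 0.853, without mouse C 0.156, and with the compared groups fitted alone 0.289. In iBET the change was 0.53 (SE 0.13, adjusted p = 0.183). There it passed with the block in DESeq2 (0.0337), but not in edgeR (0.0999), and it passed without mouse A (0.0194), with voom (0.0129) and with the compared groups fitted alone (0.0112), the fit in which the DMSO call was lost. The difference between the arms was -0.18 (95% interval -0.59 to 0.24, adjusted p = 1), so a difference in response was not detected.

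Maf moved the other way in every mouse. IC lowered its level by 0.92, 0.72 and 0.98 on the log2 scale in mice A, B and C with DMSO. In the iBET arm the falls were smaller in each mouse, with differences of -0.51, -0.48 and -0.72. The spread between mice in each group was wide, and in DMSO the groups still did not overlap. Without the block, the change was -0.85 (SE 0.26, adjusted p = 0.183) in DMSO and -0.55 (SE 0.26, adjusted p = 0.686) in iBET. With the block it was -0.87 (adjusted p = 0.000558) and -0.57 (adjusted p = 0.0102), and both were called. The interaction for Maf was 0.31 without the block (95% interval -0.51 to 1.12, adjusted p = 1). With the block it was 0.30 (SE 0.13) and was not called either. By mouse it was 0.42, 0.24 and 0.26.

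**Figure D3:**
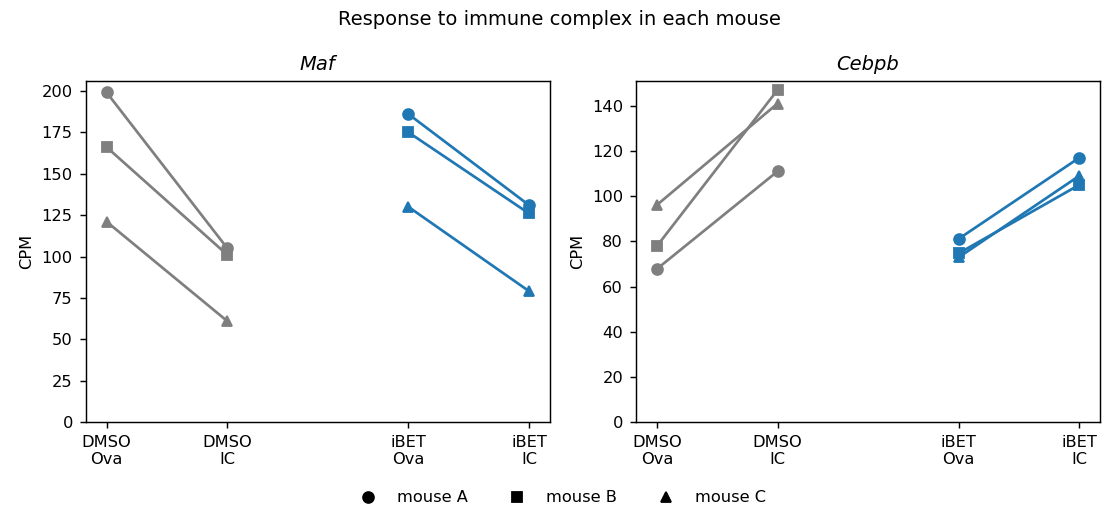
CPM (y axis, from 0) of Maf and Cebpb with Ova and with IC. Each line joins the libraries of 1 mouse, grey for DMSO and blue for iBET. All 6 lines fall for Maf and all 6 rise for Cebpb, and the Maf lines of mouse C lie lowest.

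The other 7 factors were not called for IC in either arm, with or without the block. Spi1 was the nearest to it in DMSO: all 3 IC libraries (232 to 253 CPM) lay above the Ova libraries (165 to 214 CPM), with a change of 0.32 (SE 0.11, adjusted p = 0.24). In iBET the change of Spi1 was 0.12 (95% interval -0.13 to 0.37). Runx1 gave 0.06 (-0.31 to 0.42) in DMSO and 0.14 (-0.23 to 0.51) in iBET, and Cebpa -0.29 (-0.73 to 0.14) and -0.30 (-0.72 to 0.12). Cebpd, at -0.04 (-0.79 to 0.72) and 0.04 (-0.64 to 0.73), had the widest intervals in DMSO and iBET. Klf2 gave -0.42 (-0.85 to 0.02) and -0.10 (-0.51 to 0.30). Klf4 was 0.20 (-0.09 to 0.49) in DMSO and -0.19 (-0.48 to 0.09) in iBET. For Bach1 the changes were -0.21 (-0.43 to 0.01) and 0.11 (-0.11 to 0.33), lower in 3 of 3 mice with DMSO and higher in 3 of 3 with iBET. The interaction was called for none of the 9 and for none of the 11468 genes in edgeR (0% of all genes), where 292 genes had an unadjusted p under 0.05 and DESeq2 called 4. Bach1 was the only member with an unadjusted p under 0.05 for it, and DESeq2 called no member.

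Because BET inhibition lowered Spi1 and raised Cebpa, their balance within a library was read from the raw counts, a ratio that needs no scaling between libraries. In DMSO with Ova the ratio of Cebpa to Spi1 counts was 0.289, 0.256 and 0.179 in mice A, B and C. It was 1.5, 1.28 and 1.02 in iBET with Ova. With IC, it was 0.148, 0.169 and 0.148 in DMSO and 0.926, 1.05 and 0.814 in iBET. The drug moved the mean log2 ratio by 2.40 with Ova and by 2.58 with IC. The ratio of Cebpb to Cebpa, a pair whose balance shifts as myeloid cells are activated, went down with iBET and up with IC. It averaged 1.86 ± 0.758 (SD, n = 3) in DMSO with Ova and 3.56 ± 0.378 (SD, n = 3) in DMSO with IC. In iBET it averaged 0.926 ± 0.0953 (SD, n = 3) with Ova and 1.7 ± 0.418 (SD, n = 3) with IC. The groups compared did not overlap in 7 of the 8 comparisons of these 2 ratios, the exception being Cebpa to Spi1 for IC in iBET. The ratios were chosen from the changes given above, so their separation is in part built in, and they were not tested. Both ratios hold Cebpa and use the same libraries. The share without overlap was not computed for other pairs of genes. For single genes it was 15.3% to 48.6% between the same groups.

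**Figure D4:**
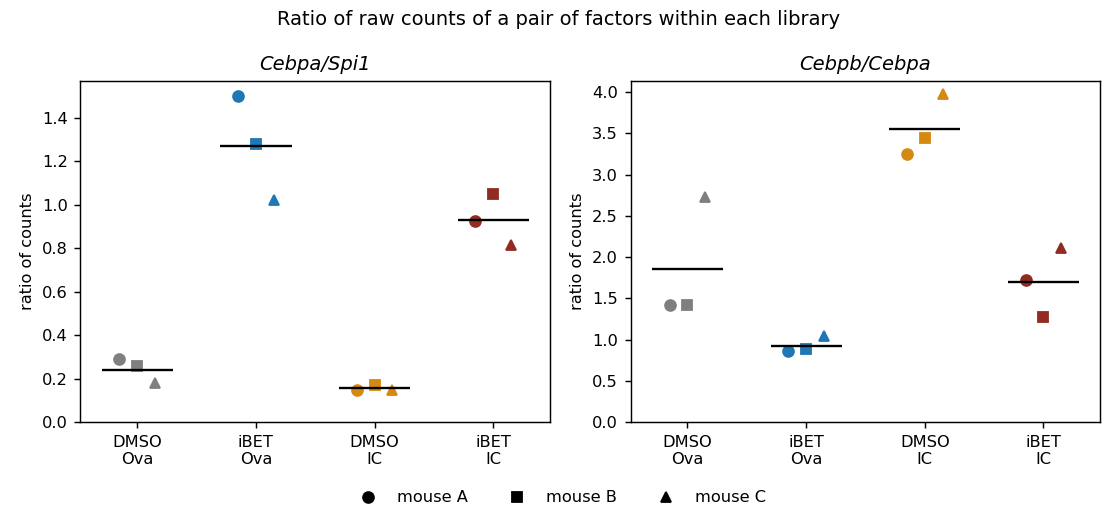
Ratio of raw counts within each library (y axis, from 0) for Cebpa to Spi1 and Cebpb to Cebpa, by group. Symbols mark the mouse and lines the group mean. Cebpa to Spi1 is at most 0.289 in DMSO and at least 0.814 in iBET; Cebpb to Cebpa is highest in DMSO with IC, at 3.25 to 3.98.

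To compare the factors with each other, levels were divided by the length of their merged exons and are given as CPM per kilobase. In DMSO with Ova, Spi1 (71.1 ± 9.2, SD, n = 3) and Cebpb (53.6 ± 9.54) led, with ranges that overlapped. Next came Maf (19.7), Klf4 (18.9), Cebpa (17.4) and Bach1 (17), which could not be ordered within their spread. Runx1 (11.9), Klf2 (8.18) and Cebpd (4.04) followed, each below the range of the one before. DMSO with IC kept Spi1 (89.4 ± 4.01) and Cebpb (88.4 ± 12.8) on top, again overlapping, followed by Klf4 (21.9), while Maf stood at 10.8. With iBET and Ova, Cebpb (50.7 ± 2.87), Cebpa (31.5 ± 4.56) and Spi1 (24.5 ± 1.21) led without overlap. Bach1 (20.4), Maf (19.9), Klf2 (18) and Klf4 (17.9) followed, each overlapping its neighbour in this order, and Cebpd (7.12) and Runx1 (4.56) were last. In iBET with IC, Cebpb (73.4 ± 4.06) stood alone on top, Spi1 (26.6 ± 2.9), Cebpa (25.6 ± 5.96) and Bach1 (22) followed with overlaps between neighbours, and Runx1 (5.02) was again the lowest. The lengths come from GENCODE, and the authors' own annotation is not given in the sources used here.

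The wider families and partners of these factors formed a list of 34 genes, of which 29 were tested. With iBET, 4 rose and 12 fell with Ova, where 31.3% of all genes tested were called (17.1% higher and 14.2% lower), and 5 rose and 12 fell with IC, where 34.8% were (19% higher and 15.8% lower). The 12 that fell were the same genes with both stimuli, among them Runx3 and Cbfb (a relative and the partner of Runx1), Klf6, Klf7, Klf10 and Klf13. The genes that rose included Irf8, a partner of PU.1, and Mafk, a small Maf protein. The median log2 fold change of the 29 was -0.23 with Ova and -0.24 with IC, beside 0.02 and 0.00 over all genes. Pparg, a lipid-sensing nuclear receptor, fell from 66.4 ± 9.55 CPM (SD, n = 3) in DMSO to 14 ± 2.99 CPM in iBET with Ova, a change of -2.23 (SE 0.22, adjusted p = 1.39e-05). Mitf, of the lysosomal and osteoclast programme, fell by 1.47 (SE 0.12, adjusted p = 4.19e-06) with Ova and by 1.63 (SE 0.12, adjusted p = 1.47e-06) with IC on the log2 scale. The liver X receptor gene Nr1h3 fell by 1.47 (SE 0.30, adjusted p = 0.0026) and by 1.98 (SE 0.28, adjusted p = 0.00021). For IC in DMSO only Maff was called, and it rose, where 1.22% of all genes were called.

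Of 20 genes known as targets of PU.1 and C/EBP proteins, 18 were tested. With iBET, 4 fell and none rose with Ova (31.3% of all genes called), and 4 fell and 1, the lysozyme gene Lyz2, rose with IC (34.8%), so that the calls were no more frequent than over all genes. Their median was 0.08 and 0.02, beside 0.02 and 0.00 over all genes. The same 4 fell under both stimuli: Tlr4, Ncf1, Msr1 and Btk. Tlr4, the endotoxin receptor, went from 117 ± 7.67 to 28.3 ± 3.74 CPM (SD, n = 3) with Ova, a change of -2.04 (SE 0.11, adjusted p = 2.40e-07), and changed by -1.45 (SE 0.11, adjusted p = 2.01e-06) with IC. Ncf1, a subunit of the phagocyte oxidase, changed by -1.01 (SE 0.13, adjusted p = 9.58e-05) and -0.67 (SE 0.13, adjusted p = 0.00154). The kinase gene Btk changed by -0.83 (SE 0.11, adjusted p = 0.000105) and -0.76 (SE 0.10, adjusted p = 0.000158). IC itself lowered Tlr4 in DMSO, by 0.61 (SE 0.11, adjusted p = 0.0182) on the log2 scale. This call held in 10 of 15 omissions and was lost without mouse B (0.589). No other gene of the 18 was called for IC in DMSO, where 1.22% of all genes were.

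Among 11 genes repressed by Bach1 in other settings, 4 rose and none fell with iBET and Ova (Hmox1, Gclc, Txnrd1 and Ftl1), a number of calls near the 31.3% of all genes. With IC, 5 rose, the same 4 and the iron exporter gene Slc40a1, and 1 fell, the cystine transporter gene Slc7a11, where 34.8% of all genes were called. Their median was 0.29 and 0.62, beside 0.02 and 0.00 over all genes. Hmox1, the haem oxygenase, went from 439 ± 47.7 to 1185 ± 114 CPM (SD, n = 3) with Ova and from 504 ± 91.4 to 1480 ± 201 CPM with IC, changes of 1.43 (SE 0.15, adjusted p = 2.88e-05) and 1.55 (SE 0.15, adjusted p = 1.32e-05). Gclc, of glutathione synthesis, rose by 1.54 (SE 0.14, adjusted p = 8.30e-06) and 1.65 (SE 0.14, adjusted p = 3.67e-06). The ferritin light chain gene Ftl1 rose by 0.94 (SE 0.11, adjusted p = 5.07e-05) and 0.82 (SE 0.11, adjusted p = 0.000124). Bach1 itself was called higher with iBET in IC and not in Ova, as given above. IC in DMSO was called for 1 of the 11, Slc7a11, which rose, where 1.22% of all genes were called.

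For c-Maf, 8 of 10 listed target genes were tested, and 1 was called with iBET under each stimulus, where 31.3% and 34.8% of all genes were. It was Gas6, a bridging ligand for apoptotic cells, which rose by 0.46 (SE 0.13, adjusted p = 0.0151) with Ova and by 0.49 (SE 0.13, adjusted p = 0.00933) with IC. These calls held in 12 and 14 of 15 omissions and were lost without mouse B (0.13 and 0.124). The list's median was 0.12 and 0.26. None of the 8 was called for IC in DMSO or in iBET, where 1.22% and 0.349% of all genes were. Maf itself fell with IC in every mouse.

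Of 8 listed targets of Klf2 and Klf4, 6 were tested, and 2 rose and 2 fell with iBET under each stimulus, against 31.3% and 34.8% of all genes called, with medians of 0.14 and -0.13. The list was not split by whether these factors raise or lower each gene, so the medians pool both kinds. The cell cycle inhibitor gene Cdkn1a rose by 0.93 (SE 0.18, adjusted p = 0.00228) with Ova and by 1.19 (SE 0.18, adjusted p = 0.00037) with IC. Pfkfb3, an activator of glycolysis, rose by 0.65 (SE 0.13, adjusted p = 0.00221) and 0.53 (SE 0.12, adjusted p = 0.00547). S1pr1, the sphingosine phosphate receptor and a direct target of Klf2 in lymphocytes and endothelium, changed by -0.94 (SE 0.14, adjusted p = 0.000409) and -0.55 (SE 0.14, adjusted p = 0.0107). IC in DMSO was called for 1 of the 6, where 1.22% of all genes were called. It was S1pr1, which changed by -0.81 (SE 0.14, adjusted p = 0.0182). That call held in 10 of 15 omissions and was lost without mouse B (0.589). Arg1 was the other gene that fell with iBET.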

How the data were processed

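Bulk RNA-seq of BMDMs was analysed from the deposited table of counts per gene symbol. Per the labels and methods, the authors processed reads with CASAVA, FastQC, Trim Galore, HISAT2 (mm10) and featureCounts, from SMARTer Pico libraries. The annotation, strand setting and handling of multimapping reads are not given in the sources used here. The deposited normalized table was not used.

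Counts were fitted in edgeR 4.0.16 (R 4.3.3): filterByExpr (minimum count 10), TMM, and a robust quasi-likelihood model with 1 term per group over 12 libraries. Two-sided p-values were corrected with the Benjamini-Hochberg method across 11468 genes, with calls made under 0.05. Standard errors are the absolute log2 fold change over the square root of F. Changes by mouse subtract log2 CPM values made with a prior count of 2. The interaction subtracts the IC response in DMSO from the one in iBET.

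Same-lettered libraries came from 1 mouse. Deviations from group means correlated at a median r of 0.26 (-0.07 to 0.54) over 18 same-mouse pairs. Over 36 others the median was -0.13 (-0.50 to 0.27), so the ranges overlapped. The latter value is tied to the former, because deviations cancel out within a group. The mouse was used as a block in an alternative fit. The cultures of a group came from separate mice.

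All 9 factors are described, with 5 lists of related and target genes, counted by direction. From each list, values are given for the 3 genes with the largest change for iBET in Ova among those called there that averaged 50 counts or more and had 1 sign in 3 mice; any other list gene was picked out with its values already known. The 2 genes most correlated with each factor were taken at the same mean count. The factors and lists were chosen with earlier results of these data known. Alternatives were DESeq2 1.42.0, its size factors, other filters, 1 surrogate variable (sva 3.50.0), limma 3.58.1 voom with quality weights, removal of Rn45s, the compared groups alone, and omission of each library or mouse. Of these fits, only edgeR without the block was tried on simulated data, for iBET against DMSO with Ova. That simulation held neither the low depth of the Rn45s-rich library nor effects shared by libraries of 1 mouse.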

Additional observations from a re-analysis of the deposited data

How the results depend on the processing

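The call of Spi1, Runx1 and Klf2 with iBET under both stimuli, and of Bach1 with iBET and IC, was kept in all alternatives run. The number of members called for IC in DMSO was 1. It was 2 with DESeq2, 2 with the mouse as a block in edgeR and 2 with that block in DESeq2, and 0 with the compared groups fitted alone (0 to 1 over omissions of a library or mouse). For IC in iBET it was 0, against 1 with the block in edgeR, 2 with the block in DESeq2, 1 with the groups alone and 1 with voom (0 to 1 over omissions). With iBET, 5 were called with Ova (4 to 5 over omissions, 4 to 6 over the other settings) and 7 with IC (4 to 8, and 7 to 8). The interaction had 0 throughout. Beside Maf, Bach1 with Ova and the IC counts, the pairing by mouse in edgeR changed no other member's call.

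Over 1116 refits of 45 member values, the sign turned in 43, all in 11 values near 0 and none of them called. For Cebpd and IC in DMSO (-0.04), 1 surrogate variable gave 0.19 and voom 0.11. For Maf and iBET with Ova (0.03), DESeq2 gave -0.02, its size factors -0.01, the filter of 10 counts in every library 0.00 (just under 0), the block in DESeq2 -0.01 and the groups alone -0.02. For the interaction, Cebpd gave -0.08 with the surrogate variable and -0.08 with voom, Runx1 -0.04 with voom, and Cebpa 0.00 without Rn45s. The cause was not tested. Omissions of a library or mouse gave these ranges: for IC in DMSO, Cebpd -0.32 to 0.37, Runx1 -0.08 to 0.15 and Klf4 0.00 to 0.34; for IC in iBET, Cebpd -0.04 to 0.12 and Runx1 -0.05 to 0.26; for iBET with Ova, Cebpb -0.26 to 0.09, Maf -0.15 to 0.17 and Klf4 -0.25 to 0.04; for the interaction, Cebpa -0.24 to 0.18, Cebpd -0.32 to 0.36 and Runx1 -0.11 to 0.26. The 13 target and related genes with values kept their direction in 700 refits and lost the call in 24. In edgeR without a library or mouse, iBET calls lost with Ova included Nr1h3 (adjusted p up to 0.0971) and Pfkfb3 (0.0671). Those lost with IC included S1pr1 (0.183), Pfkfb3 (0.0647) and Ncf1 (0.0576). With 3 mice and 1768133 counts outside Rn45s in 1 library, precision is limited, and the standard error was largest for Cebpd and next for Maf in all 5 comparisons. No interaction was called, and its intervals leave room for differences between the stimuli.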

Other observations

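Across the 12 libraries, the genes whose log2 CPM followed each factor most closely were found among 9427 genes, as a description in which the points share the drug groups and the mice. Flrt2 and Oasl1 came first for Spi1 (Pearson r = 0.99 each) and Serpinb8 and Tns3 for Runx1 (0.99 each). Usp33 (0.99) and Plekhg2 (0.97) came first for Cebpa, Slbp (0.98) and Paip2b (0.97) for Klf2, and Ptpn11 and Anapc7 (0.97 each) for Cebpd. Cirh1a (0.97) and Eif4e (0.96), the cap-binding factor of translation, followed Cebpb. Epg5 (0.97) and Ipmk (0.96) came first for Bach1, Mxd4 (0.94) and Ypel3 (0.91) for Maf, and Nxt1 (0.90) and Zdhhc12 (0.87) for Klf4.

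The ratio of Klf4 to Klf2 counts was 3.52, 4.43 and 3.62 in mice A, B and C with DMSO and Ova, and 1.78, 1.67 and 1.47 with iBET and Ova. With IC it was 6.22, 7.51 and 4.62 in DMSO and 1.64, 1.47 and 1.49 in iBET. The ratio of Bach1 to Runx1 counts averaged 0.738 ± 0.0927 (SD, n = 3) in DMSO with Ova and 2.4 ± 0.572 in iBET with Ova, and 0.618 ± 0.0747 and 2.28 ± 0.373 with IC. The ratio of Runx1 to Spi1, the pair that fell with the drug, overlapped between DMSO and iBET with Ova (0.702 to 0.82 against 0.568 to 0.982) and did not with IC (0.559 to 0.692 against 0.807 to 0.881). None of these ratios was tested.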
